A study of Mus musculus with 12 samples.

Results

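*Mbp* encodes myelin basic protein, which holds the cytoplasmic faces of the myelin membrane together and is a defining product of oligodendrocytes. The RNA-binding protein SLM2, encoded by *Khdrbs3*, had 13 enhanced cross-linking and immunoprecipitation (eCLIP) peaks in this gene in mouse whole brain and 0 in hippocampus. The peaks are those of the merged list of each tissue, 2057 in whole brain and 178 in hippocampus, whose centre lies on the strand of *Mbp* (plus) between 82475146 and 82585637 of chromosome 18 (mm10). The gene was chosen by its number of whole-brain peaks, which was high for a gene that marks oligodendrocytes, so that number is a description and was not tested.

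All mice were 30 days old, and 12 libraries were made from their tissue, which was cross-linked with UV light as a frozen powder. Wild-type (WT) whole brain has 2 eCLIP and 2 size-matched input libraries, and WT hippocampus has 2 and 2. *Slm2* KO hippocampus also has 2 and 2, and these 4 libraries enter no comparison here. Whole brain has no KO libraries, so its *Mbp* peaks were not checked against tissue without SLM2. For whole brain, each lysate held the powder of 1 animal, whereas several hippocampi were pooled for a hippocampal lysate. The authors merged the replicates of each tissue into 1 list, in which every peak carries a log2 fold change of eCLIP over input, a −log10 p for that enrichment and a −log10 irreproducible discovery rate (IDR) between the replicates, so that no value has a spread between replicates. By the study's sequencing statistics the whole-brain libraries were the deeper ones, and by its methods they were amplified with fewer PCR cycles. Tissue, depth and PCR cycles cannot be told apart. Peaks over input do not give the level of a marker, so the labelled tissues could not be checked against marker genes. The lysates held all cells of the tissue, so fewer cells of a type and less RNA per cell cannot be told apart.

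The gene makes 2 families of transcripts. The classic transcripts start at an internal promoter and encode the myelin proteins of oligodendrocytes, in several sizes that result from alternative splicing. The Golli transcripts start far upstream, some of them read through the classic unit, and they encode Golli proteins that are also found in neurons and immune cells. SLM2 belongs to the STAR family of RNA-binding proteins, binds AU-rich motifs in introns of neuronal pre-mRNAs and controls alternative exons there. Quaking, another STAR protein, is known to act on *Mbp* RNA in oligodendrocytes.

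All 13 SLM2 peaks of *Mbp* lay in the classic transcription unit and none in the part of the gene that only Golli transcripts cover. GENCODE lists 16 transcripts of *Mbp*, of which 4 are Golli transcripts, 11 are classic coding transcripts and 1 is a processed transcript, Mbp-214. In RefSeq, all 11 transcripts that start upstream encode Golli-Mbp proteins and the 6 that start at the internal promoter encode myelin basic protein. The part upstream of the first classic start, 79.3 kb or 71.8% of the gene, held 0 of the 13 peaks (0%, exact Clopper-Pearson 95% interval 0 to 24.7, counting error only). The part from the classic start on, 31.2 kb or 28.2% of the gene, held 13 of 13 (75.3 to 100). Neighbouring peaks of 1 gene are not independent, so these counts were not tested against the lengths. Both parts are made of similar sequence, with 49.0% G and C upstream and 49.8% from the classic start on, and 20.0% and 12.2% of their bases are masked as repeats. UWAA (UAAA or UUAA), the tetramer recognised by SLM2, started at 571 positions upstream, 0.720 of 100, and at 226 positions in the classic part, 0.725 of 100. Of the 4 Golli transcripts, Mbp-201 spans the classic part as well and Mbp-213, which ends at 82584217, spans most of it. A peak there thus cannot be assigned to 1 family of transcripts.

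**Figure D1:**
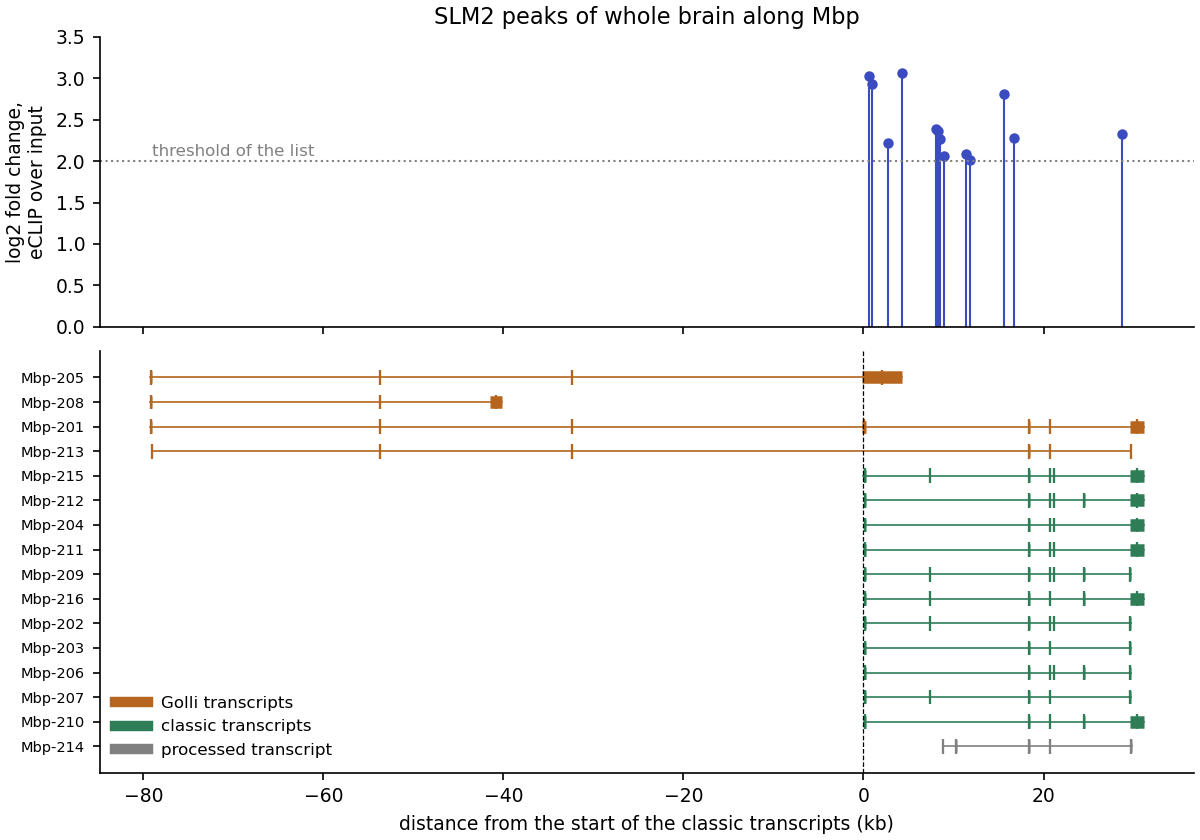
Whole-brain SLM2 peaks along *Mbp* (top, log2 fold change of eCLIP over input for each of 13 peaks) above the 16 GENCODE transcripts (bottom, boxes are exons, short ones drawn at a minimum width), on 1 axis of distance from the start of the classic transcripts in kb. The 79.3 kb before 0 hold no peak, and the peaks stand between 0.646 and 28.7 kb after it.

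The peaks were gathered in the first introns of the classic transcripts. The classic unit has 7 exon blocks and 6 introns. Intron 1, of 7.03 kb, held 4 peaks and intron 2, of 10.97 kb, held 8, which is 0.569 and 0.729 peaks per kb. Introns 3, 4 and 5, of 2.25, 0.327 and 3.30 kb, held none, and intron 6, of 5.05 kb, held 1. No peak had its centre in an exon of a classic transcript. Exon 2, which lies between the introns with most of the peaks, is a cassette exon of 78 nt (chr18:82561778-82561855) that is present in 5 of 11 classic transcripts. In the 6 transcripts that skip it, introns 1 and 2 form 1 intron that holds 12 of the 13 peaks. The first peak after exon 2 starts 616 nt downstream of it, and peaks 5 to 8 (numbered in the order of transcription) then follow within 1026 nt. Exons 5 and 6, the other alternative exons, are present in 7 and 5 of the 11 classic transcripts and have no peak in the introns on their upstream side, while the only peak of intron 6 lies 4099 nt after exon 6.

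The first 4 peaks, all in intron 1, included the 3 of highest fold change. Peak 1 (chr18:82555062-82555171) is centred 366 nt after exon 1 and had a log2 fold change of 3.03 and a −log10 p of 8.46. Peak 2 (chr18:82555282-82555520) is the longest of the gene at 239 nt, and had a log2 fold change of 2.93 and the highest −log10 p of the gene, 19.1, which ranks 23 among the 2057 whole-brain peaks. Peak 3 (chr18:82557201-82557275) had 2.22 and 5.43. These 3 peaks lie in an intron of every classic transcript and of the Golli transcripts Mbp-201 and Mbp-213, but inside the last exon of the Golli transcript Mbp-205, which runs 4384 nt from 82554320 to 82558703. Peak 4 (chr18:82558733-82558808) starts 29 nt beyond the end of that exon and had the highest log2 fold change of the gene, 3.06, with a −log10 p of 12.2. Thus the early peaks can be read as intronic or, for 3 of the 4, as exonic, depending on the transcript.

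The 8 peaks of intron 2 ranged in log2 fold change between 2.01 and 2.81, with a median of 2.28 against 2.98 for the 4 peaks of intron 1. Peak 5 (chr18:82562472-82562518) had 2.38, and peak 6 (chr18:82562692-82562872) had 2.37 together with a −log10 p of 14.4, the second highest of the gene. Peaks 7 and 8 had 2.27 and 2.06, and peak 8 (chr18:82563324-82563497) shares 9 nt with the first exon of the processed transcript Mbp-214. Peaks 9 and 10 had 2.08 and 2.01, and peak 10 was the *Mbp* peak closest to the threshold of 2 that the authors set. Among the peaks of this intron, peak 11 (chr18:82570110-82570151), with 42 nt the shortest of the gene, stood out by a log2 fold change of 2.81, with a −log10 p of 3.54, the lowest of the gene. Peak 12 had 2.28, and peak 13 (chr18:82583094-82583221), the lone peak of intron 6, had 2.33 and lies 955 nt before the last exon. The last peak centre is 2.48 kb from the end of the gene, and the nearest whole-brain peaks outside it are 3485 kb before it, in *Setbp1*, and 3823 kb after it, in *Neto1*. No peak of either tissue lay on the opposite strand within the gene.

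**Figure D2:**
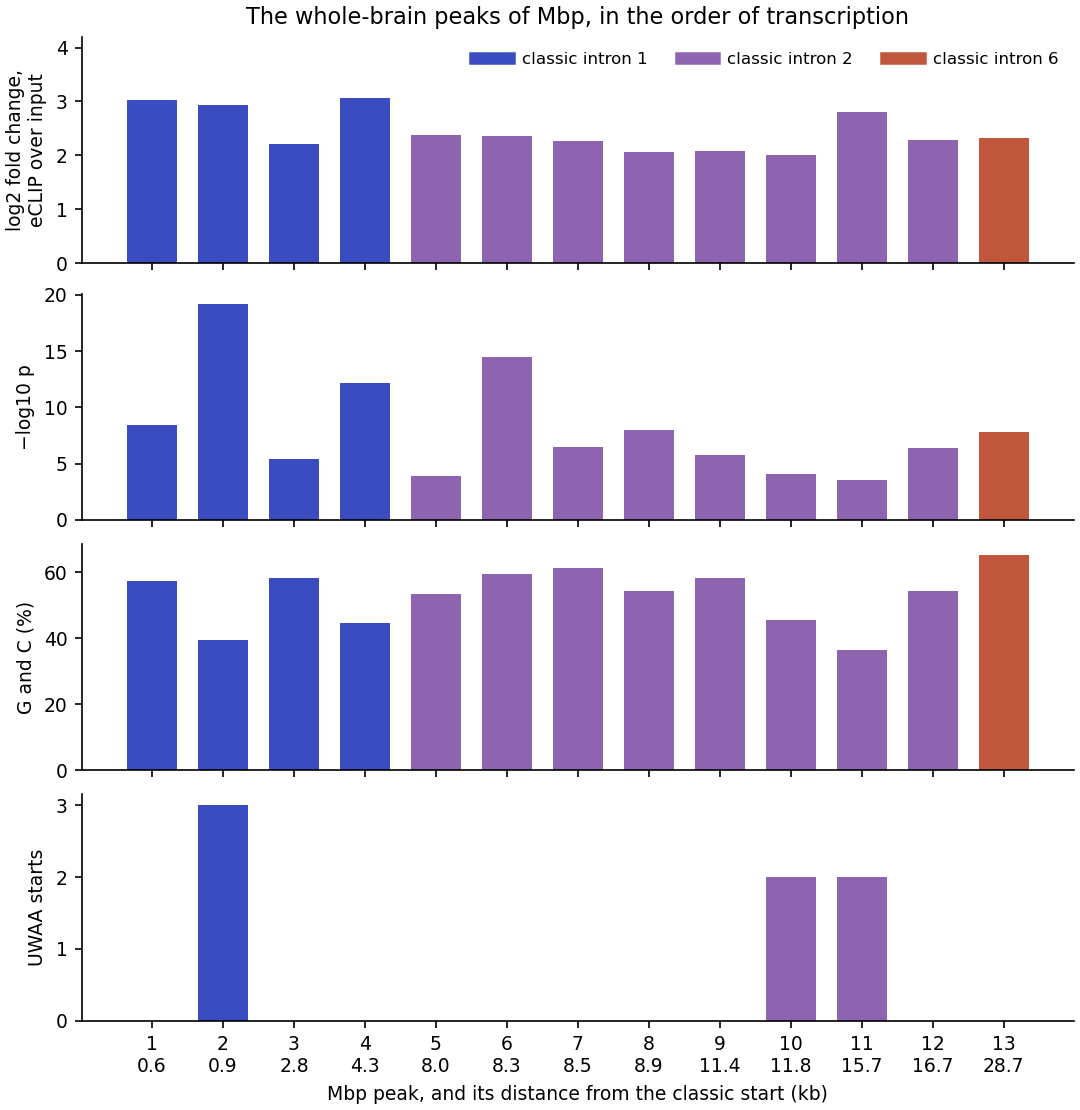
The 13 whole-brain peaks of *Mbp* in the order of transcription, coloured by the intron of the classic transcripts that holds them, with the log2 fold change of eCLIP over input, the −log10 p of the authors, the percentage of G and C and the number of UWAA starts within 50 nt of the peak centre. Peaks 1, 2 and 4 reach 2.93 to 3.06 in log2 fold change, and UWAA is found at peaks 2, 10 and 11 only.

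Compared with the rest of the whole-brain list, the *Mbp* peaks were modest in fold change and high in the −log10 p, which grows with the number of reads at a given fold change. The log2 fold change was 2.45 ± 0.375 (mean ± SD over 13 peaks, range 2.01 to 3.06) in *Mbp* and 2.67 ± 0.534 over the other 2044 peaks, and 4 of the 13 were above the median of the others, 2.56. The −log10 p had a median of 6.45 in *Mbp* and of 4.31 in the others, a median that 10 of the 13 *Mbp* peaks exceeded. The −log10 IDR had medians of 2.78 and 2.42, and 9 of 13 *Mbp* peaks were above 2.42. In length the *Mbp* peaks resembled the rest, with medians of 87 and 106 nt. Since all peaks of the list had passed the thresholds on fold change and IDR, and the peaks of *Mbp* share 1 gene, these differences were not tested. Under a threshold of 3 in place of 2 on the log2 scale, 2 peaks were left, peaks 1 and 4.

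The peaks of *Mbp* were poor in UWAA. Within 50 nt of the peak centre, UWAA was found at 3 of 13 *Mbp* peaks (23.1%, 95% interval 5.04 to 53.8), against 1716 of the other 2044 (84.0%, 82.3 to 85.5). These are peak 2, with 3 starts, and peaks 10 and 11, with 2 each. They are among the 4 peaks of the gene with the lowest G and C content, at 39.6%, 45.5% and 36.6%. Counted over the whole length of each peak, 4 peaks held UWAA, peak 6 being the addition. Any 101-nt window of the classic part holds UWAA with a frequency of 43.4%, and of the upstream part with 40.3%, so that the windows at the *Mbp* peaks held it no more often than sequence of the same gene. The longer motif UUWAAAA (W being A or U), which contains UWAA, was at 0 of 13 *Mbp* peaks (0 to 24.7%) and 389 of the other peaks (19.0%). The share of the others lies inside that interval, so 13 peaks cannot show a difference in this motif. It occurs 28 times in the upstream part of the gene and 8 times in the classic part.

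In density, the *Mbp* peaks differed from their flanks by less than the spread between peaks. With flanks centred at a distance of 500 nt, UWAA started at 0.549 ± 1.07 of 100 positions at the peaks, against 0.510 ± 0.361 in the flanks (mean ± SD, 13 peaks). For peaks 5 to 10, some of these flanks overlap other *Mbp* peaks, so that peaks are there compared in part with peaks. The density was higher at the peak than in its flanks for 3 peaks, lower for 8 and equal for 2. The difference of 0.0392 had an SD of 1.13 over the peaks. It changed sign with more distant flanks or without repeat-masked windows, and was 0.401 with 25 nt on each side of the centre. Over the other peaks of the list, UWAA started at 3.61 of 100 positions at peaks and at 1.81 in flanks, and 1364 of 2044 peaks were above their flanks.

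Other sequence features of the *Mbp* peaks were a high G content and little repeat sequence. All 13 peaks were above the median G and C content of the other peaks, 33.7%, with 53.0 ± 8.76% in *Mbp* and 36.7 ± 12.3% in the rest. The flanks of the *Mbp* peaks had 50.6 ± 5.41%, so much of this is shared by the surrounding sequence. Some of these flanks overlap other *Mbp* peaks, which holds for each comparison with flanks. G alone made up 29.6% of the bases at the peaks, 25.6% of the flanks and 24.9% of the classic part. The run GGGG, chosen after the values were seen, was present at 10 of the 13 peaks (76.9%), in 12 of 26 flanks (46.2%), in 31.4% of all 101-nt windows of the classic part and at 24.8% of the other whole-brain peaks. Peaks 3, 4 and 13 lacked it. The G-rich pentamer GGWGG (GGAGG or GGUGG) was at 4 of 13 peaks (30.8%, 9.09 to 61.4) against 22.8% of the other peaks and 28.6% of windows of the classic part. Its density of 0.397 ± 0.671 of 100 positions at the peaks and 0.198 ± 0.261 in the flanks again differed by less than the spread between peaks. The quaking motif ACUAAY (Y being C or U) was at 1 of 13 peaks, peak 11, against 7.78% of the other peaks and 2.16% of windows of the classic part. All motifs were read on the strand of the gene, and a match is a sequence of letters and not a site. Repeat-masked bases made up more than 20% of the window at 2 of 13 *Mbp* peaks (15.4%), against 51.2% of the other peaks. No *Mbp* peak matched the sequencing adaptor, against 20 of the other peaks. Base composition and repeats move together with UWAA, and their part in its low count was not tested.

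The distance of the *Mbp* peaks to exons depended on the transcripts that were counted. Over exons of all annotated transcripts, the centre was in an exon or within 500 nt of one for 7 of 13 peaks (53.8%, 25.1 to 80.8), against 226 of 2044 other peaks (11.1%, 9.73 to 12.5), with median distances of 480 nt in *Mbp* and 13147.5 nt in the others. For 4 of these 7, peaks 1 to 4, the nearest exon was the long last exon of the Golli transcript Mbp-205, and for the other 3, peaks 6 to 8, it was the first exon of the processed transcript Mbp-214. Over exons of the classic transcripts alone, 1 of 13 peaks was within 500 nt, peak 1, and the median distance was 1555 nt.

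Among genes with many peaks, *Mbp* was one of the shorter ones and its peaks were crowded into its end. With each peak given to 1 gene, *Mbp* shared rank 35 of 434 genes by number of peaks. Of the protein-coding genes, 421 of 21951 (1.92%) held a whole-brain peak, and of the 625 with a length of 100 to 125 kb, like *Mbp* with 110.5 kb, 20 did (3.20%). Of these 625 genes 1, *Mbp* itself, held at least 13 peaks (0.160%), followed by the AMPA receptor gene *Gria2* with 12 and *Gpm6a*, which encodes a neuronal membrane glycoprotein, with 9. The cut of 13 is the count of *Mbp*, which was chosen for its number of peaks. This share and the ranks of *Mbp* by number and density of peaks follow from that choice and only describe it. In the 57 genes with at least 8 peaks, *Mbp* ranked 7 in peaks per length, with 11.8 per 100 kb against a median of 3.36. Its first peak came after 72.4% of the gene, the fifth latest, while the median gene had its first peak after 4.64%. The stretch between the first and the last peak was 25.4% of the gene, against a median of 66.1%.

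The 5 genes whose peaks were most like those of *Mbp* were *Neat1*, *Rbfox3*, *Ppp2r2c*, *Rora* and *Tspan5*. Likeness was the distance over 4 standardised means over the peaks of a gene (UWAA, GGWGG, G and C content and repeat-masked bases). It was taken among the 57 genes with at least 8 whole-brain peaks, and likeness in these 4 together follows from the choice. The 5 genes were not close to *Mbp* in each measure. GGWGG started at 0.397 of 100 positions in *Mbp*, but at 0.843 in *Neat1*, 1.03 in *Rbfox3* and *Rora*, 1.12 in *Ppp2r2c* and 1.26 in *Tspan5*. Repeat-masked bases made up 4.87% in *Mbp* and 19.6% in *Rora*. The nearest was *Neat1*, the long non-coding RNA of nuclear paraspeckles (distance 1.54), with 11 peaks, 1.21 UWAA starts per 100 positions and 48.7% G and C. It was followed by *Rbfox3*, the gene of NeuN, a splicing regulator of neurons (1.90, 102 peaks, 0.450 UWAA and 56.0% G and C), and *Ppp2r2c*, which encodes a regulatory subunit of protein phosphatase 2A (2.14, 11 peaks, 0.835 and 54.9%). *Rora*, which encodes a nuclear receptor, and *Tspan5*, which encodes a tetraspanin, came next at 2.45 and 2.53. UWAA was lower than in *Mbp* in *Grm4*, *Tspan5* and *Rbfox3* only, with *Grm4*, a metabotropic glutamate receptor gene, at 0.230. The median of the 57 genes was 4.19. In *Neat1*, *Rbfox3*, *Tspan5* and *Grm4* UWAA was not denser at the peaks than in the flanks, with 1.21 and 1.39 in *Neat1* and 0.340 and 1.25 in *Tspan5*, and in *Rora* the values were 1.56 and 1.46. *Ppp2r2c* had 0.835 at peaks and 0.325 in flanks. *Rbfox3* differed from *Mbp* in the placement of its peaks, which began after 0.513% of the gene and spanned 90.7% of it.

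**Figure D3:**
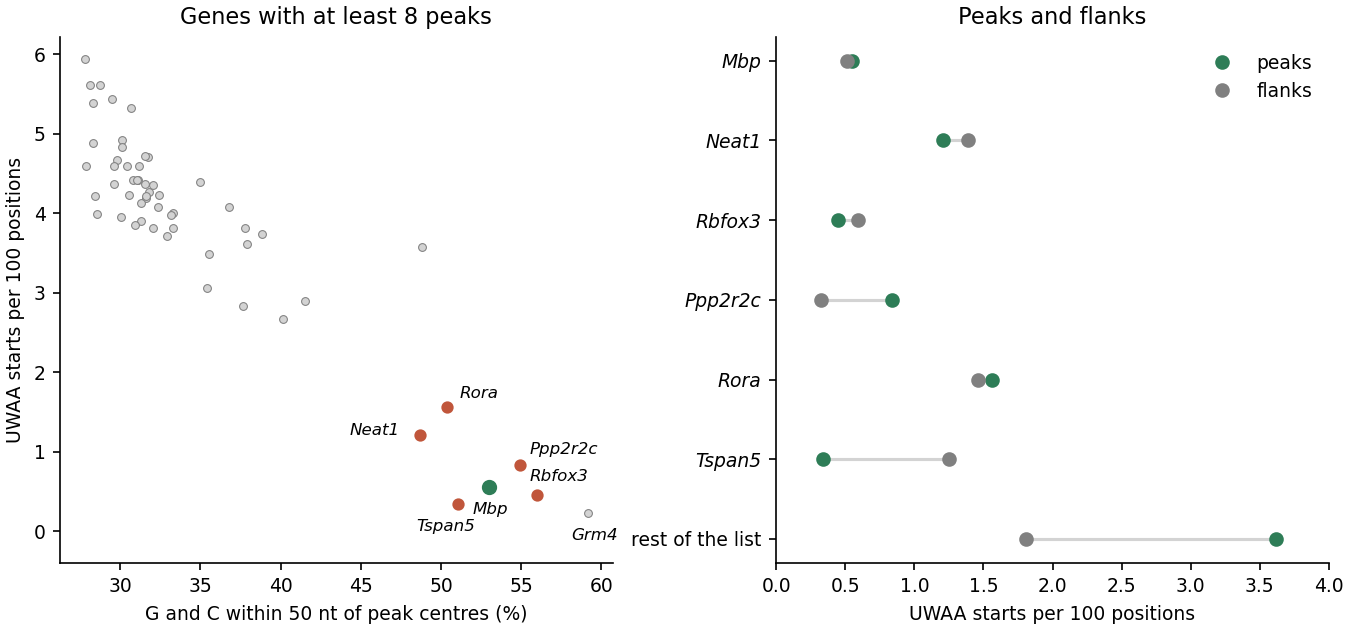
Left, UWAA starts per 100 positions against the percentage of G and C within 50 nt of peak centres, each point the mean over the whole-brain peaks of 1 of 57 genes with at least 8 peaks (*Mbp* green, the 5 most similar genes red). Right, UWAA starts per 100 positions at peaks (green) and flanks (grey), where *Mbp* has 0.549 and 0.510 and the other peaks of the list 3.61 and 1.81.

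The other genes of myelin and the oligodendrocyte lineage, 70 genes in 4 lists, held 6 whole-brain SLM2 peaks in all, at most 2 in a gene. Of 19 genes of the myelin sheath and membrane, 2 held a whole-brain peak, *Mbp* and *Nfasc*. *Nfasc*, which encodes neurofascin, a cell adhesion protein of both glia and axons, had 1 peak (log2 fold change 2.35). *Mobp*, which encodes another basic protein of compact myelin, held none in either tissue, and the same was true of *Mog*, *Mag*, *Cnp*, *Cldn11* and *Opalin*. These 6 genes are short, with 31.8 kb for *Mobp* and 12.7 kb for *Mog*. None of 20 genes for myelin lipid synthesis and other oligodendrocyte enzymes held a peak. Among 16 transcription factors of the lineage, *Zfp536* and *Tcf4*, both of which are also expressed in neurons, held 1 each (4.81 and 2.17). Among 16 genes of oligodendrocyte precursors, the adhesion genes *Dscam* and *Pcdh15* held 2 and 1, and in hippocampus *Pdgfra*, which encodes the growth factor receptor of these precursors, held 1 (2.25). Without *Mbp*, which was chosen for its peaks, 5 of 70 lineage genes held a whole-brain peak (7.14%), against 1.92% of protein-coding genes, and 1 held a hippocampal peak (1.43%), against 0.378%. The 5 genes are all over 100 kb long. Of the lineage genes of at least 100 kb other than *Mbp*, 5 of 16 held a whole-brain peak (31.2%), against 12.4% of all protein-coding genes of this length, and of the shorter ones 0 of 54. Genes of at least 100 kb are not matched in length, as the 5 holders range from 177 kb (*Nfasc*) to 1550 kb (*Pcdh15*). Of protein-coding genes of 100 to 125 kb, 3.20% held a whole-brain peak. The lists were written with earlier results known, so they were not tested.

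Of 15 genes listed for the processing and transport of *Mbp* RNA, 3 held a whole-brain peak, against 1.92% of protein-coding genes, and none a hippocampal peak. These are 3 of the 5 listed genes of at least 100 kb, a length at which 12.4% of protein-coding genes held one. *Qk*, which encodes quaking, had 1 peak (log2 fold change 2.51), where UWAA was frequent at the peak and in the flanks (6.12 and 5.61 of 100 positions). The other holders are genes of the SLM proteins themselves, *Khdrbs2* (SLM1) and *Khdrbs3*, which had 1 peak each, with UWAA densities of 7.14 and 8.16. *Khdrbs3* encodes SLM2, the protein that was immunoprecipitated. Both were listed as candidates with earlier results known, so the share of holders may follow in part from the choice of the list. Without these SLM genes *Qk* is the only holder. Whether the SLM proteins act on *Mbp* RNA was not tested. The genes for other factors of the list, such as *Hnrnpa2b1* and *Fyn*, which act in the transport and local translation of *Mbp* mRNA, had none. Of the markers of other cells, 3 of 6 neuronal genes held whole-brain peaks (*Rbfox3* with 102, *Syt1* with 55 and *Snap25* with 2). Of the astrocyte genes 1 of 6 did (*Slc1a2*, which encodes a glutamate transporter, with 1 peak), and 0 of 4 microglial and 0 of 3 endothelial genes. At the share of 1.92% over all protein-coding genes, counts of 0 among so few genes say nothing of these cell types.

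**Figure D4:**
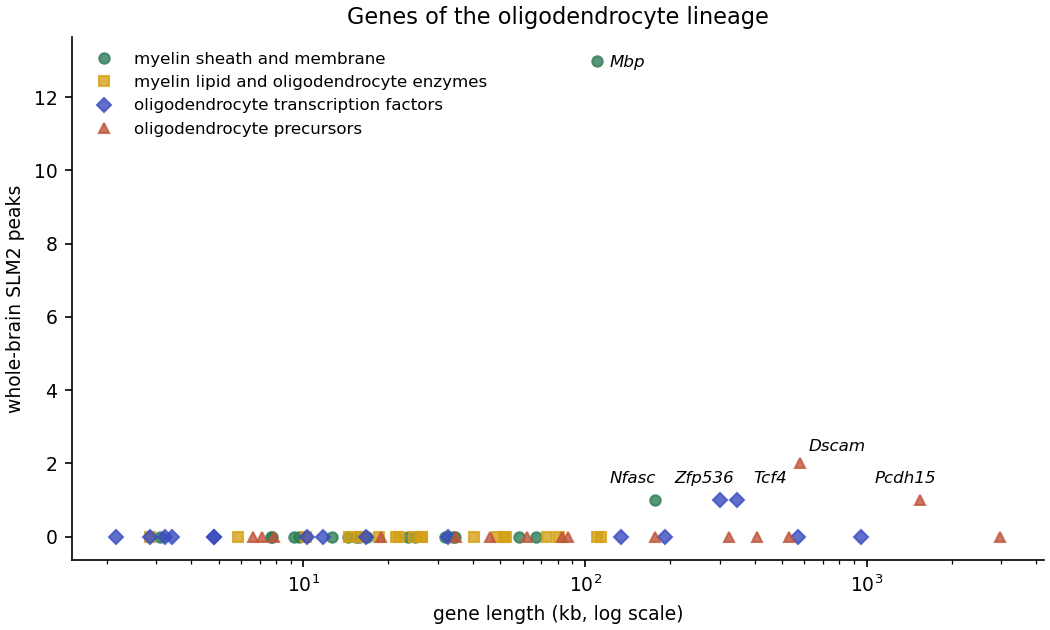
Number of whole-brain SLM2 peaks (vertical axis) against gene length in kb (log scale) for 71 genes of the oligodendrocyte lineage in 4 lists, each point 1 gene. *Mbp* stands at 13 peaks, *Dscam* at 2, *Nfasc*, *Zfp536*, *Tcf4* and *Pcdh15* at 1 and all others at 0.

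In hippocampus the list held no peak of *Mbp*, and of all protein-coding genes 0.378% had one, of those of 100 to 125 kb 0.960% and of those of at least 100 kb 2.61%. The 13 whole-brain peaks are 0.632% of that list (0.337 to 1.08). If a count of 0 allows up to 3 peaks, the 0 of 178 hippocampal peaks allow a share of up to 1.69%. This is above the whole-brain share, so a difference between the tissues was not detectable at this depth. Both bounds treat peaks as independent, which peaks of 1 gene are not. The lists also differ in the −log10 p, which was below 2 for 95 of 178 hippocampal peaks, against 0 of 2057 in whole brain. This value grows with the number of reads and is not a measure of enrichment alone. The lowest log2 fold change was 2.01 in hippocampus and 2.00 in whole brain. The median −log10 p was 1.75 in hippocampus and 4.32 in whole brain. At the whole-brain share, 1.12 of 178 peaks would fall in *Mbp*. Of the 5 genes most like *Mbp*, *Rbfox3* held 3 hippocampal peaks and *Neat1* held 1, while *Ppp2r2c*, *Rora* and *Tspan5* held none.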

How the data were processed

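The peak lists came from eCLIP and size-matched input libraries of whole brain and hippocampus. Per the submitters' processing notes, cutadapt 3.4, STAR 2.7.9 (genome mm10) and UMI-tools 1.1.1 were used before the authors ran CLIPper for peaks and IDR for the merging of replicates. The deposited log2 fold change (eCLIP over input), −log10 p and −log10 IDR of each peak are the authors' values. The lists carry no column names, which were taken from the study's supplementary sheet, and no read counts, so the depth behind a peak is unknown here.

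Peaks were given to genes of GENCODE vM21 (GRCm38, the assembly of mm10) by their centre and strand; for counts per gene, each peak went to 1 gene, protein-coding genes before others, then the longest. Sequence came from GRCm38 with repeats in lower case. Motif starts were counted within 50 nt of the centre and in flanks 450 to 550 nt away, all windows kept. Golli transcripts start in the upstream part of *Mbp*, classic ones at the internal promoter. An adaptor match needed 10 nt. Intervals of shares are exact binomial ones at 95%, except that 0 of the 178 hippocampal peaks was taken to allow up to 3. All of them treat peaks as independent, which peaks of 1 gene are not. No test was made, as each tissue has 1 merged list.

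The members and gene lists were chosen with earlier results of these data known. Of the genes listed, 2 are not reported here and were left out of every list count. Genes named were *Mbp*, list members with a peak (up to 4 for other cell types), *Rbfox3*, *Grm4*, holders of the nearest peaks and the 5 genes most like *Mbp*; others were named after their values were seen. Procedures were tested on simulated sequence and peaks. Alternatives covered thresholds, overlap rules, windows, flanks, masking and merged peaks. Analyses used Python 3.11.15, numpy 2.4.6, pandas 2.3.3, scipy 1.17.1, pysam 0.24.0, matplotlib 3.10.9 and samtools 1.23.1.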

Additional observations from a re-analysis of the deposited data

How the results depend on the processing

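With any overlap of 1 nt, either strand, or adaptor matches left out, *Mbp* kept 13 whole-brain peaks, and 12 sites were left when peaks within 100 nt were joined. Under a threshold of 3 it held 2 peaks by log2 fold change and 5 by −log10 IDR, and these 5 had a median log2 fold change of 2.93. The upstream part and the hippocampal list held 0 *Mbp* peaks under every alternative run. The UWAA difference between peaks and flanks was 0.0392 in the main setting and with windows centred on the 5-prime end. It was 0.401 with 25 nt on each side of the centre, 0.0971 with 100 nt and 0.0850 with joined peaks. With flanks centred 1000 nt away it was −0.157, and with masked windows left out −0.0464. The GGWGG difference was −0.0397 with the more distant flanks and between 0.0390 and 0.328 under the other alternatives. The cause of these shifts was not tested. With at least 2 peaks required, 2 lineage genes were left, *Mbp* and *Dscam*. No paired analysis was possible because the 2 replicates of each tissue were merged into 1 list, so no replicate could be left out either. The peak lists hold no read counts, and the 178 hippocampal peaks limit what can be said of *Mbp* in that tissue.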
